A study of Zea mays with 12 samples.

Results

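Dehydrins and Em-type proteins belong to the late embryogenesis abundant (LEA) proteins, and the genes described here are 3 dehydrin genes and 1 Em-type gene of maize. They were chosen by gene identifier: dhn1, also called rab17 (GRMZM2G079440), a gene described as a cor410-type dehydrin (GRMZM2G147014), dhn2 (GRMZM2G373522) and emb5 (GRMZM2G162659). They are 4 of the 39656 genes measured. The annotation table pairs dhn1, dhn2 and emb5 with those names and gives no name to GRMZM2G147014. These genes had 5 annotated transcripts in all, and the second dhn2 transcript, with 5 reads over all libraries, was not used.

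LEA proteins are very hydrophilic and accumulate late in seed development, when the seed acquires tolerance to drying. Dehydrins carry lysine-rich repeats and are thought to protect membranes and proteins when water is lost. In leaves and roots many of them are induced by drought, cold or the hormone abscisic acid (ABA), and maize rab17 takes its name from its response to ABA. Cor410 was described in wheat as a cold-induced acidic dehydrin. Genes of the Em type are strongly expressed in maturing embryos and respond to ABA together with the transcription factor Viviparous1. In cereals the aleurone, the outer endosperm layer, survives drying, whereas the starchy endosperm inside it dies as the kernel matures.

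Polyadenylated RNA was sequenced from aleurone and from starchy endosperm cells of kernels at 15 days after pollination, isolated by laser capture from paraffin sections. The 4 groups were nkd aleurone, B73 aleurone, nkd starchy endosperm and B73 starchy endosperm, with 3 libraries each. B73 is the inbred reference line, and nkd (naked endosperm) is a mutant in the duplicate transcription factor genes Nkd1 and Nkd2 that had been backcrossed repeatedly to B73. Nothing in the sources used here gives the nkd alleles, the number of kernels per library or how areas were picked for capture, so p-values measure the spread between libraries, part of which may be technical. The captured RNA was amplified by T7 RNA polymerase before library preparation, which favours the 3' part of transcripts.

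Total gene reads per library ranged from 9570998 to 64000784. Of the mutated loci, Nkd2 fell in the mutant aleurone (difference -2.11 on the log2 scale, with a limma adjusted p of 0.00259), and Nkd1 differed by -0.59 with a limma adjusted p of 0.212. In starchy endosperm the nkd minus B73 difference was -0.94 for Nkd2 and -1.39 for Nkd1, each with a limma adjusted p of 0.22. The summed level of 4 starchy endosperm markers (wx1, sh2, bt2 and bt1) was 129 to 260 CPM (reads scaled to 1000000 per library) in nkd aleurone, against 3765 to 9689 in B73 aleurone, and was 2771 to 6992 in nkd starchy endosperm, against 12583 to 23107 in B73 starchy endosperm. That of 5 aleurone markers (Sal1, cr4, dek1, LTP3 and vpp1) was 2498 to 10616 CPM in nkd aleurone, against 1104 to 3274 in B73 aleurone, and 216 to 626 in nkd starchy endosperm, against 263 to 1246 in B73 starchy endosperm. This sum was mostly vpp1 in each group, and vpp1 differed by 1.42 between the aleurone genotypes (limma adjusted p = 0.199). The aleurone difference was 2.34 for LTP3, 1.40 for cr4, -0.29 for Sal1 and -0.09 for dek1. In B73 the mean of dek1 was 15.8 CPM in aleurone and 16.1 in starchy endosperm, and that of cr4 was 12.3 and 13.3. The 26 zein genes took 0.178% to 0.903% of the reads in nkd aleurone, against 13.9% to 26.6% in B73 aleurone. Replicate 2 of B73 starchy endosperm was unlike the rest of its group. Its log2 CPM correlated across genes at 0.803 and 0.882 with its fellow libraries and at 0.909 to 0.927 with those of B73 aleurone. Its summed aleurone marker level was 1246 CPM, and those of the other libraries of its group were 263 and 475. Differences of the 4 genes that rest on B73 starchy endosperm are therefore given with and without this library. In such bulk samples, a smaller share of cells of a type and less RNA per cell cannot be told apart.

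The first comparison was nkd against B73 within the aleurone. No member passed the threshold there, and all 4 estimates were above 0. A threshold of 0.05 on the adjusted p was passed by 14.6% of all 26496 genes tested, with a median log2 difference of 0.04. The libraries of the genotypes overlapped for each of the 4 genes, whereas 33.7% of all genes had none. Levels are given as normalised reads, the deposited read counts divided by 1 factor per library, and differences are on the log2(value + 1) scale. They are not divided by transcript length, so levels are compared between groups and not between genes.

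The level of dhn1 was 182, 52.1 and 59.3 normalised reads in nkd aleurone, against 15.5, 15.2 and 65.4 in B73 aleurone. Replicate 1 was high in nkd, replicate 3 was high in B73 and lay above 2 of the nkd libraries, so the groups overlapped. The means were 97.7 ± 72.9 in nkd and 32.0 ± 28.9 in B73 (SD, n = 3 each). The difference was 1.68 on the log2 scale (SE 0.72, unadjusted 95% interval 0.07 to 3.30), and its adjusted p was 0.156 by limma. These levels rest on 150, 77 and 94 reads in nkd and on 19, 4 and 109 reads in B73, so counting error is large in the B73 libraries.

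For the cor410-type gene GRMZM2G147014 the values were 1957, 581 and 1872 normalised reads in nkd aleurone, against 1544, 792 and 844 in B73 aleurone. The nkd libraries included both the highest and the lowest value of the 6, and the groups overlapped. The difference was 0.35 (SE 0.50, 95% interval -0.77 to 1.46, limma adjusted p = 0.698).

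The level of dhn2 was 7401, 1975 and 6449 normalised reads in nkd aleurone, against 1393, 2308 and 2687 in B73 aleurone. In nkd, 2 libraries lay far above all B73 libraries, whereas replicate 2 lay among them. The means were 5275 ± 2897 in nkd and 2129 ± 665 in B73 (SD, n = 3 each), a difference of 1.15 on the log2 scale (SE 0.51, 95% interval 0.01 to 2.28) with a limma adjusted p of 0.167. Without nkd aleurone replicate 2 the difference was 1.75 and passed the threshold, with a limma adjusted p of 0.0259.

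The Em-type gene emb5 had 143, 75.1 and 20.2 normalised reads in nkd aleurone, against 13.8, 7.58 and 84.6 in B73 aleurone. These levels rest on 118, 111 and 32 reads in nkd and on 17, 2 and 141 reads in B73. As with dhn1, replicate 3 was the high library of B73. The groups overlapped, and the difference was 1.47 (SE 0.95, 95% interval -0.67 to 3.61, limma adjusted p = 0.349). Within flow cells, each of which carried 1 library per group, the nkd minus B73 difference of emb5 was 3.28, 3.15 and -2.01, and that of dhn1 was 3.47, 1.72 and -0.14. Both genes thus had 2 flow cells with higher levels in nkd and 1, the third, with the opposite sign.

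Markers of neighbouring tissues also differed between these libraries. The summed level of 3 pericarp and nucellus markers (p1, expA4 and expa1) was 131, 53.3 and 62.6 CPM in nkd aleurone, against 60.7, 30.8 and 23.3 in B73 aleurone. It was highest in nkd replicate 1, which was also the highest nkd aleurone library for each of the 4 genes. Its markers went opposite ways, and in nkd aleurone the sum was mostly expA4. The mean of expA4 was 77.9 CPM in nkd and 11.8 in B73 aleurone (difference 2.67, limma adjusted p = 0.00365). For expa1 the means were 3.83 and 26.1 CPM (difference -2.64, limma adjusted p = 0.0442), and p1 was at 0.459 and 0.388 CPM. The summed level of the 5 embryo markers was 88.9, 48.3 and 47.0 CPM in nkd aleurone, against 191, 86.5 and 134 in B73 aleurone. In B73 it was highest in replicate 1 and not in replicate 3, the high library for dhn1 and emb5, and 1 of the markers, wox5B, was at 0 in every library. In B73 aleurone the sum was mostly glb1 (mean 102 CPM) and wox2A (35.1), with kn1 at 0.376 and glb2 at 0.153. The mean of wox2A was 41.9 CPM in B73 starchy endosperm, and glb1 is also a storage gene of seed maturation, so the sum is a poor measure of embryo tissue. The 8 basal transfer layer markers summed to 8.13, 13.8 and 210 CPM in nkd aleurone, against 3.03, 16.2 and 18.7 in B73 aleurone. The embryo-surrounding region list was also highest in nkd replicate 3, at 15.1 CPM. In that library dhn1 was at 59.3 and emb5 at 20.2 normalised reads. The part of these tissues in the differences was not tested.

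**Figure D1:**
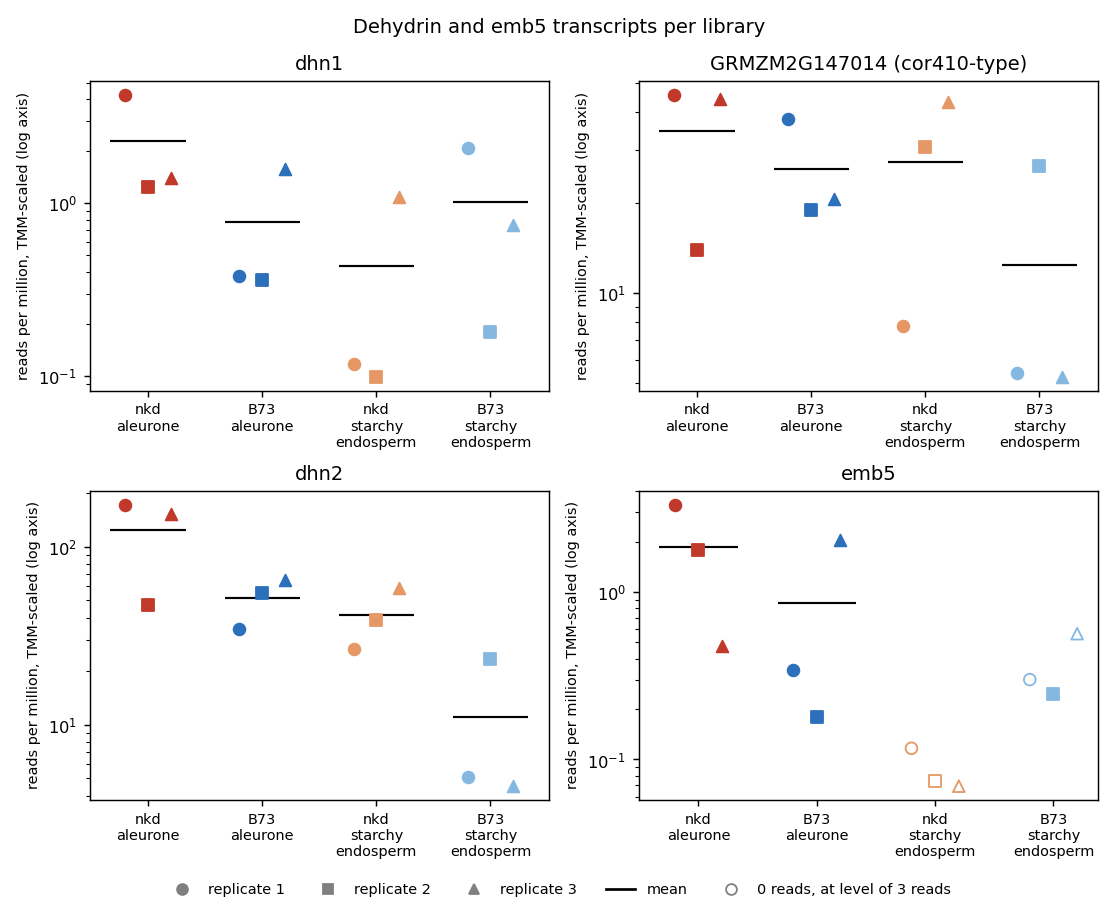
Level of each gene in every library, in CPM scaled by TMM factors over all 12 libraries (log axis); each symbol is 1 library, black lines are group means and are left out for groups in which a library had 0 reads, and open symbols mark 0 reads, drawn at the level of 3 reads. For dhn2 all B73 starchy endosperm libraries lie below the other groups, and for emb5 the nkd starchy endosperm libraries had 0 reads.

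The same comparison in starchy endosperm tested 3 of the genes. None of them passed, against 1.78% of the 24582 genes tested, whose median log2 difference was 0.12. Of the 3, only dhn2 separated the groups. Its level was 559, 791 and 1283 normalised reads in nkd starchy endosperm, against 109, 469 and 108 in B73 starchy endosperm. Every nkd library lay above every B73 library, as was the case, in this direction, for 11.3% of all genes tested. The means were 878 ± 369 in nkd and 228 ± 208 in B73 (SD, n = 3 each). The difference was 2.22 (SE 0.61, 95% interval 0.87 to 3.58, 4.67-fold), with a limma adjusted p of 0.109. Without B73 replicate 2, the library with 469, it was 2.93 with a limma adjusted p of 0.0558. Within flow cells the difference was 2.35, 0.75 and 3.56.

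GRMZM2G147014 had 164, 627 and 952 normalised reads in nkd starchy endosperm, against 115, 531 and 126 in B73 starchy endosperm. Replicate 1 was the low library of nkd and replicate 2 the high library of B73, and the groups overlapped (difference 1.22, SE 0.76, 95% interval -0.45 to 2.89, limma adjusted p = 0.484). Without B73 replicate 2 the difference was 1.93 (limma adjusted p = 0.249). Each flow cell gave a higher value in nkd, by 0.51, 0.24 and 2.91.

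Of dhn1 there were few reads in this tissue: 3, 4 and 47 in nkd starchy endosperm, against 21, 8 and 4 in B73 starchy endosperm. Scaled to normalised reads this was 2.46, 2.02 and 23.8 in nkd, against 44.8, 3.60 and 17.9 in B73. The estimate was below 0, unlike that in aleurone, but its interval was wide (difference -1.31, SE 1.36, 95% interval -4.32 to 1.70, limma adjusted p = 0.688). Without B73 replicate 2 it was -2.21 (limma adjusted p = 0.461). The nkd library replicate 3, the one with 47 reads, also had the highest summed level of the 8 basal transfer layer markers, 349.8 CPM, against 14.5 and 35.6 in the other nkd starchy endosperm libraries. It was the highest library of its group for dhn2 and GRMZM2G147014 as well, and for the summed aleurone markers (626 CPM, against 216 and 292). The pericarp and nucellus list was highest there too, at 86.1 CPM against 22.8 and 39.7, and was 16.3, 50.8 and 4.33 CPM in B73 starchy endosperm. Within that list the nkd minus B73 difference in starchy endosperm was 3.29 for expA4 (limma adjusted p = 0.0227) and -0.55 for expa1 (limma adjusted p = 0.839). The part of these tissues in the starchy endosperm values was not tested.

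Reads of emb5 were 0, 0 and 0 in nkd starchy endosperm, against 0, 11 and 0 in B73 starchy endosperm. A mean below 5 kept it out of the test. All 11 reads lay in replicate 2, the B73 library that stood apart, and without it both groups were at 0. A count of 0 allows up to 3 reads, or 0.0692 to 0.117 CPM in the nkd libraries and 0.300 and 0.564 in the B73 libraries at 0. Such limits cover counting error only.

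**Figure D2:**
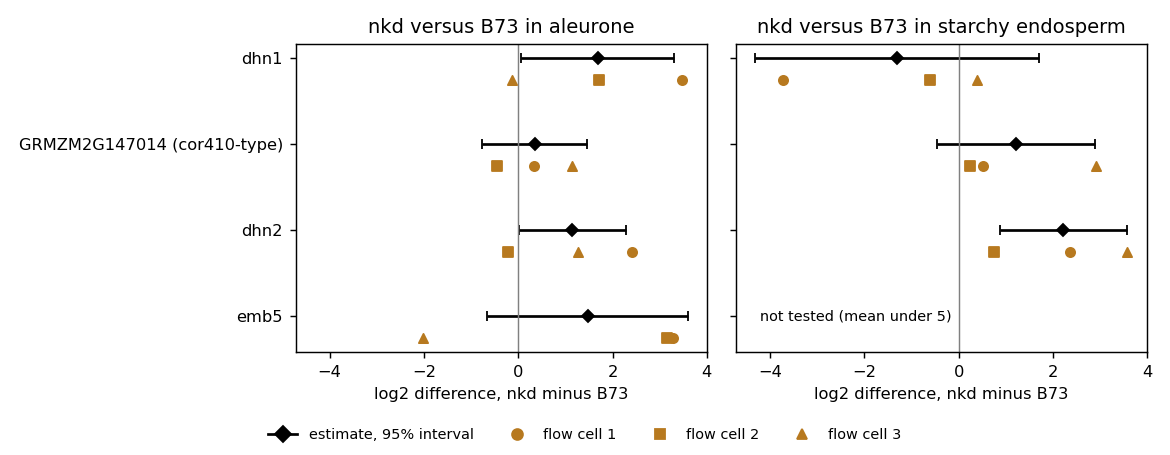
Log2 difference, nkd minus B73, of each gene in aleurone (left) and starchy endosperm (right); diamonds are limma estimates with unadjusted 95% intervals and the brown symbols under each are the differences within each of the 3 flow cells. In starchy endosperm all 3 flow cells lie above 0 for dhn2 and GRMZM2G147014, and in aleurone each gene has 1 flow cell below 0.

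Aleurone was then compared with starchy endosperm within each genotype. Reads of all 12 libraries were scaled together for this and are given as CPM with TMM factors. In nkd kernels emb5 was higher in aleurone and was the only 1 of the 4 genes to pass, against 6.48% of the 26684 genes tested. Its level was 3.33, 1.79 and 0.477 CPM in nkd aleurone, from 118, 111 and 32 reads, whereas all nkd starchy endosperm libraries were at 0. Pooled over the libraries this was 1.59 CPM in nkd aleurone. Set against the 0.0274 that 3 reads over the whole nkd starchy endosperm group would give, this pooled level was 58.0-fold higher. That ratio takes the pooled level as exact and allows for no spread between the nkd aleurone libraries, the lowest of which was at 0.477 CPM. The adjusted p was 0.0185 by edgeR's quasi-likelihood test, and it became 0.0557 without nkd starchy endosperm replicate 1 and 0.0521 without replicate 2, neither of which passes.

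The dehydrins did not pass in nkd. The level of dhn1 was 4.24, 1.24 and 1.40 CPM in nkd aleurone, against 0.117, 0.0989 and 1.09 in nkd starchy endosperm. The groups did not overlap, as held for emb5 and, in the same direction, for 16% of all genes tested. The difference was 2.37 (SE 1.14, edgeR adjusted p = 0.234), and without nkd starchy endosperm replicate 3 it was 4.40 (edgeR adjusted p = 0.0533). For dhn2 the values were 172, 47.2 and 152 CPM in nkd aleurone, against 26.5, 38.7 and 58.4 in nkd starchy endosperm, with overlap through aleurone replicate 2 (difference 1.59, SE 0.63, edgeR adjusted p = 0.151). GRMZM2G147014 had 45.6, 13.9 and 44.2 CPM in nkd aleurone, against 7.77, 30.6 and 43.3 in nkd starchy endosperm. Its values spanned nearly the same range in both tissues, and the difference was 0.34 (SE 0.71, edgeR adjusted p = 0.834) and turned to -0.10 without nkd starchy endosperm replicate 1.

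In B73 no member passed, and neither did any other of the 26684 genes by edgeR's quasi-likelihood test (0%), although 4336 genes had an unadjusted p under 0.05 and DESeq2 called 1445. For dhn2 the values were 34.3, 55.0 and 65.3 CPM in B73 aleurone, against 5.10, 23.4 and 4.51 in B73 starchy endosperm. The groups did not overlap, which in this direction held for 16.1% of all genes tested. The difference was 2.19 (SE 0.65, 4.58-fold, edgeR adjusted p = 0.179). Without B73 starchy endosperm replicate 2 it was 3.42 and passed, with an edgeR adjusted p of 0.0356. DESeq2 on all libraries also called it (adjusted p = 0.0255), while over the other settings the adjusted p reached 0.237.

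GRMZM2G147014 had 38.0, 18.9 and 20.5 CPM in B73 aleurone, against 5.40, 26.5 and 5.27 in B73 starchy endosperm. Only the starchy endosperm library that stood apart, replicate 2, overlapped the aleurone values. The difference was 1.03 (SE 0.72, edgeR adjusted p = 0.491), and without that library it was 2.27 (edgeR adjusted p = 0.106).

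The gene dhn1 had 0.381, 0.361 and 1.59 CPM in B73 aleurone, against 2.101, 0.180 and 0.752 in B73 starchy endosperm. The groups overlapped widely (difference -0.31, edgeR adjusted p = 0.917). Without B73 starchy endosperm replicate 2 the difference was -0.86 (edgeR adjusted p = 0.680), and the sign turned to 0.03 without B73 aleurone replicate 1 and to 0.95 without B73 starchy endosperm replicate 1. For emb5, B73 aleurone had 0.341, 0.180 and 2.06 CPM, against 0, 0.247 and 0 in B73 starchy endosperm. Over the pooled reads the level was 6.72-fold higher in B73 aleurone (95% counting interval 3.66 to 13.7), but the libraries overlapped and the edgeR adjusted p was 0.321. The B73 aleurone libraries had 17, 2 and 141 reads, so most of the pooled reads came from replicate 3. The overlap was through replicate 2, with its 2 reads. All 11 starchy endosperm reads came from replicate 2, so without it B73 starchy endosperm was at 0 (edgeR adjusted p = 0.156) and the fold no longer holds as a ratio. In the 2 B73 starchy endosperm libraries at 0, 3 reads stand for 0.300 and 0.564 CPM. The lowest level in B73 aleurone, 0.180 CPM, lies below both, so either library may have missed a level like it.

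Whether the nkd effect differed between aleurone and starchy endosperm was tested directly, and no gene of the 26684 passed by edgeR's quasi-likelihood test (0%, with 2174 at an unadjusted p under 0.05 and 194 called by DESeq2). The difference between the effects was 2.68 for dhn1 (SE 1.59, edgeR adjusted p = 0.705), -0.69 for GRMZM2G147014 (SE 1.01, edgeR adjusted p = 0.907) and -0.61 for dhn2 (SE 0.88, edgeR adjusted p = 0.906). Without B73 starchy endosperm replicate 2 these were 3.23, -1.93 and -1.83 (edgeR adjusted p = 0.437, 0.436 and 0.388). For emb5 the edgeR adjusted p was 0.548 (1.00 without that library), and no size is given because nkd starchy endosperm was at 0. The opposite estimates for dhn1 in the tissues, 1.68 in aleurone and -1.31 in starchy endosperm, were therefore not shown to differ.

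Ordered by mean CPM, dhn2 was highest in nkd aleurone (124 ± 67.3, SD, n = 3), followed by B73 aleurone (51.5 ± 15.8), nkd starchy endosperm (41.2 ± 16.1) and B73 starchy endosperm (11.01 ± 10.75). Of the neighbours in that order only nkd and B73 starchy endosperm did not overlap. GRMZM2G147014 had means of 34.6 ± 17.9 in nkd aleurone, 25.8 ± 10.6 in B73 aleurone, 27.2 ± 18.0 in nkd starchy endosperm and 12.4 ± 12.2 in B73 starchy endosperm, so that nkd starchy endosperm stood second, with overlap between all neighbours. Mean dhn1 was 2.29 ± 1.68 in nkd aleurone, 0.777 ± 0.704 in B73 aleurone, 0.433 ± 0.564 in nkd starchy endosperm and 1.01 ± 0.986 in B73 starchy endosperm, so that B73 starchy endosperm stood second and nkd starchy endosperm last, again with overlap between all neighbours. For emb5 nkd aleurone came highest, then B73 aleurone, and both starchy endosperm groups lay lowest, with nkd at 0, and neighbouring groups overlapped or shared values of 0.

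The dehydrins with the most reads, dhn2 and GRMZM2G147014, were also set against each other within each library, which removes the scaling between libraries. This ratio was chosen after the values had been seen. There were 3.78, 3.40 and 3.44 reads of dhn2 per read of GRMZM2G147014 in nkd aleurone, against 0.902, 2.91 and 3.18 in B73 aleurone. In nkd starchy endosperm the ratio was 3.41, 1.26 and 1.35, against 0.944, 0.884 and 0.857 in B73 starchy endosperm. Each nkd library had a higher ratio than every B73 library of its tissue, and the B73 starchy endosperm libraries were nearly alike, the one that stood apart included. Of these, replicate 1 had 51 reads of dhn2 and 54 of GRMZM2G147014, and replicate 3 had 24 and 28. Counting error is large in both, so neither their likeness nor their distance from nkd replicates 2 and 3 is well fixed. Exact permutation tests gave a two-sided p of 0.1 in each tissue, the smallest that 3 against 3 libraries can give. The mean log2 difference was 0.80 in aleurone and 1.01 in starchy endosperm, and these were 0.22 without B73 aleurone replicate 1 and 0.54 without nkd starchy endosperm replicate 1. Without B73 starchy endosperm replicate 2 the starchy endosperm value was 1.00. A design of this size could not pass a threshold of 0.05, and the ratio, which is not divided by transcript length, does not show which gene is expressed more.

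**Figure D3:**
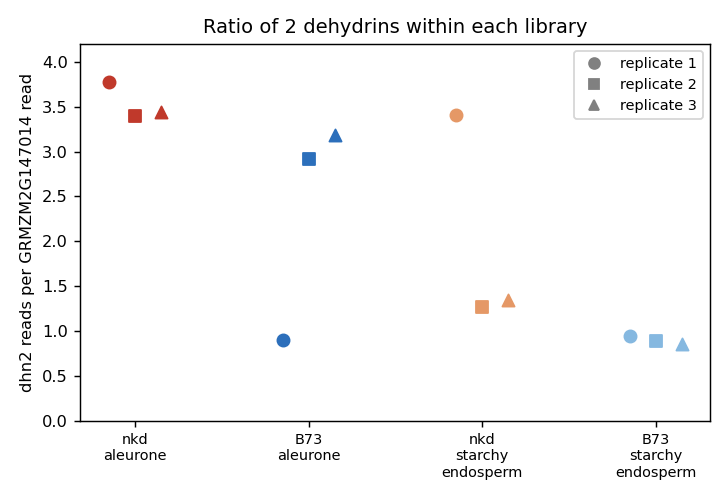
Reads of dhn2 per read of GRMZM2G147014 in each library (linear axis from 0); each symbol is 1 library. The nkd aleurone libraries lie between 3.40 and 3.78, the B73 starchy endosperm libraries lie between 0.857 and 0.944, and 1 library departs from the other 2 in both B73 aleurone and nkd starchy endosperm.

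Of 3 other LEA genes with a name in the annotation table (mlg3, dehydrin7 and Lea14A), 0 of 3 passed for nkd against B73 in aleurone and 0 of the 2 tested in starchy endosperm. The level of mlg3 was 3736, 2326 and 2379 normalised reads in nkd aleurone, against 582, 220 and 3583 in B73 aleurone. Replicate 3 was once more the high library of B73, and the difference was 1.83 (limma adjusted p = 0.172). The difference was 0.62 for dehydrin7 (limma adjusted p = 0.343) and -1.33 for Lea14A (limma adjusted p = 0.271). Between tissues in nkd, mlg3 was higher in aleurone by 4.42 (edgeR adjusted p = 0.0387, and up to 0.0858 when 1 library was left out, which ended the call for 5 of 12 libraries), and the other 2 did not pass. In B73 0 of 3 passed, with a median difference of 3.09 against 0.10 over all genes tested.

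Storage genes of seed maturation (oleosins of the oil bodies, globulins and the peroxiredoxin per-1) were set beside the LEA genes. In nkd, all 5 of the list's 6 genes that could be tested were higher in aleurone than in starchy endosperm, with a median difference of 4.32 against 0 over all genes, of which 874 of 26684 were called higher. The oleosin genes ole1 and oleosin4 were higher by 4.32 and 4.67 (edgeR adjusted p = 0.00868 and 0.0123). The gene per-1, a peroxiredoxin of dormant seeds, was higher by 4.44 (edgeR adjusted p = 0.0113). Named after their values were seen, the other 2 were glb1, a globulin gene that is also in the embryo marker list (3.48, edgeR adjusted p = 0.0113), and the gene named oleosin (1.74, edgeR adjusted p = 0.0433). Without nkd starchy endosperm replicate 1 the adjusted p of glb1 was 0.0523 by edgeR. That of oleosin was 0.0601 by edgeR with the replicate block and up to 0.18 without any of 6 libraries. In B73 0 of 5 passed, with a median of 2.96. For nkd against B73, 0 of 5 passed in either tissue, and the medians were -0.81 in aleurone and -2.27 in starchy endosperm, below those of all genes. With the replicate block, ole1 and per-1 fell in nkd starchy endosperm (limma adjusted p = 0.00635 and 0.0468). Estimates for nkd against B73 in aleurone lay above 0 for all 4 of the genes described here, for 2 of the 3 other LEA genes and for 0 of 5 storage genes. None of these genes passed there, and with a median of 0.04 over all genes an estimate above 0 was common. Whether the lists differ was not tested.

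Genes of ABA perception and response were next, and 4 of 19 had estimates above 0 in nkd aleurone. Of the 19, 7 fell, 0 rose and 12 did not pass, with a median difference of -0.90 against 0.04 over all genes, of which 2193 fell. The ABA receptor genes PYL8 and PYL10 fell by 1.22 and 1.57 (limma adjusted p = 0.039 and 0.0087). The call for PYL8 ended with the replicate block (limma adjusted p = 0.0547) and without any of 5 of the 6 libraries (up to 0.132). Named after their values were seen, the other genes that fell were the receptor genes PYL3, PYL6, PYL9 and PYL12 and the protein kinase gene SnRK2.5, by 1.97 to 4.03. Of these, PYL12 had a limma adjusted p of 0.0115, which was 0.059 without B73 aleurone replicate 1, and PYL3 had 0.00582, which was 0.0586 with edgeR in 1 fit over all 12 libraries. Another receptor gene, PYL2, differed by 0.23 (limma adjusted p = 0.864), and vp1, which encodes Viviparous1, differed by 0.59 (limma adjusted p = 0.541). In starchy endosperm 2 of 18 genes fell, the kinase genes SnRK2.5 and SnRK2.7, and each call ended without any 1 of the 6 libraries. With the replicate block vp1 and PYL2 fell there as well (limma adjusted p = 0.0393 and 0.0232, against 0.0757 and 0.168 without the block).

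Between tissues in nkd, vp1 was higher in aleurone by 5.51 (edgeR adjusted p = 0.00565), as was SnRK2.7 by 1.70 (edgeR adjusted p = 0.0334, 0.0645 with the replicate block, and up to 0.129 when 1 library was left out), while PYL6 and PYL10 were lower and the other 15 of 19 did not pass. In B73 0 of 19 passed.

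Among 6 genes of ABA synthesis, AO1, which encodes an aldehyde oxidase, and pds1, which encodes phytoene desaturase of the carotenoid pathway that supplies the ABA precursor, fell in nkd aleurone. AO1 had 54.5, 60.2 and 110 normalised reads in nkd aleurone, against 374, 341 and 649 in B73 aleurone. Its groups were well apart (difference -2.60, limma adjusted p = 0.00451). The difference of pds1 was -1.70 (limma adjusted p = 0.0113, and 0.0604 without B73 aleurone replicate 1). VP15, a gene of molybdenum cofactor synthesis, differed by 0.35 (limma adjusted p = 0.608). In starchy endosperm 0 of the 5 genes tested passed, and between tissues 0 of 6 passed in either genotype.

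**Figure D4:**
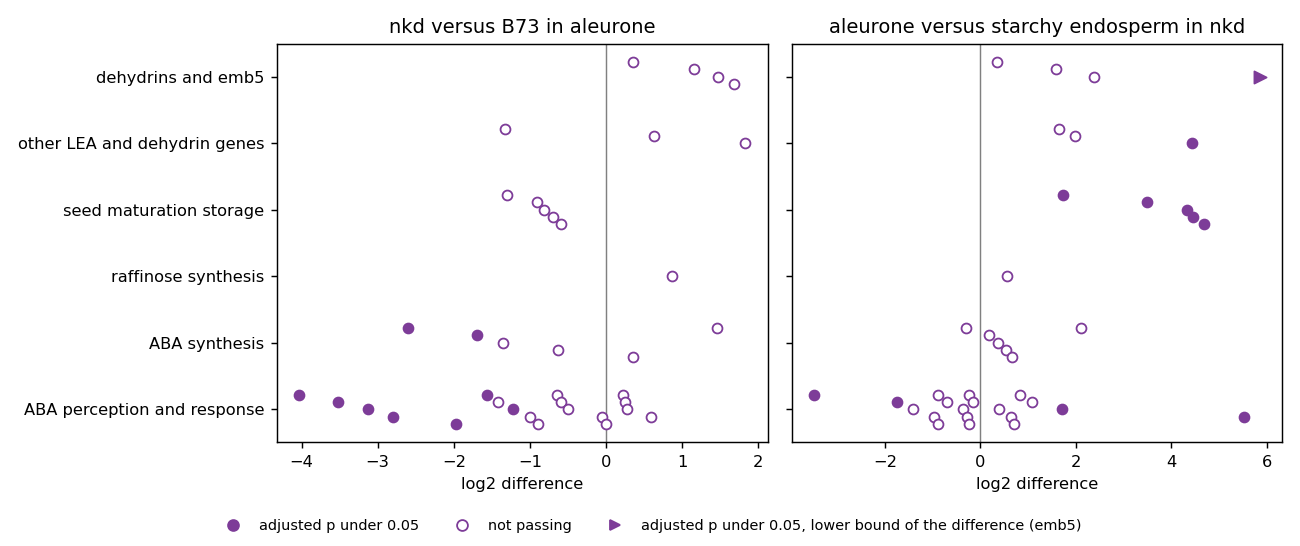
Log2 difference of each gene by list, for nkd minus B73 in aleurone (left) and aleurone minus starchy endosperm in nkd (right). Each circle is 1 gene, filled where its adjusted p was under 0.05. The triangle marks emb5 at 58.0-fold, its pooled nkd aleurone level over the counting limit of the nkd starchy endosperm group. That ratio allows for no spread between the nkd aleurone libraries. On the left 7 genes of the ABA response list fell and no LEA gene passed, and on the right all 5 storage genes and vp1 lie above 0.

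The genes whose levels were most like each member were sought among about 1900 genes with a name and a mean of at least 50 reads, by Pearson's r of log2 CPM over the 12 libraries. The libraries share scaling and tissue differences, so r is a description. For emb5 these were EREB85, a gene of the ethylene response factor family (r = 0.939), the sucrose synthase gene ss2 (r = 0.929) and GAPC, a glyceraldehyde phosphate dehydrogenase gene (r = 0.927). Mean ss2 was 4134 CPM in nkd aleurone, 2485 in B73 aleurone, 178 in nkd starchy endosperm and 301 in B73 starchy endosperm. Its means stood in the same order over the 4 groups as those of emb5.

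For dhn2 the nearest were BZ-1 (GRMZM2G117851, r = 0.920), the pyruvate dehydrogenase gene pdh2 (r = 0.903) and tan1, which acts in placing the division plane (r = 0.896). GRMZM2G147014 was nearest to EREB93, another gene of the ethylene response factor family (r = 0.918), TIFY25, of the jasmonate repressor family (r = 0.897), and BRK3 (r = 0.891). The likeness was weakest for dhn1, with r = 0.831 and 0.824 for the identifiers named sbp12 and 0.796 for aos3, an allene oxide synthase gene of jasmonate synthesis. The 2 sbp12 identifiers, GRMZM2G156621 and GRMZM2G126827, had nearly equal values in the tables and may share reads.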

How the data were processed

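Polyadenylated RNA of 12 laser-captured libraries (4 groups of 3) was amplified linearly and sequenced, per the labels' protocols. The authors deposited 2 tables of normalised signal, aleurone and starchy endosperm, each with 63540 transcripts. FastQC, TopHat and DESeq are named in the submitters' processing notes, with no versions. The sources used here do not give the genome build, annotation, strand use or treatment of multiply mapped reads, so reads of similar genes, dehydrins included, and of antisense genes may be mixed. In each library 100% of values were whole multiples of 1 step within 0.01, so each deposited value is a read count over 1 library factor, and reads were recovered. The tables were scaled separately.

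The transcript of highest mean stood for each gene, and names came from RefSeq for Zm-B73-REFERENCE-NAM-5.0 (18775 identifiers, 47.3%, matched), by symbol only. Genotypes were compared within a table with limma 3.58.1 on log2(value + 1), a scale that understates changes of low genes. Genes with a mean below 5 were left out. Tissues, and the difference of the nkd effects, were compared with edgeR 4.0.16 (quasi-likelihood, TMM) on the recovered reads of all 12 libraries, with the same minimum in reads. Standard errors for edgeR were derived from its F statistic. Every p is two-sided and was adjusted by Benjamini-Hochberg over all genes tested, with a threshold of 0.05. R 4.3.3 and Python 3.11.15 were used. On simulated counts with 200 changed genes the aleurone genotype test recovered 89.5% of them, over 25010 genes. Their median absolute log2 difference was 1.98. The simulation gave every gene the same fixed spread, and its changed genes lay above a minimum level and all changed by the same factor. Recovery for genes as variable between libraries as the 4 genes, or as low in reads as dhn1 and emb5, was not tested. Libraries held 9570998 to 64000784 gene reads.

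Per the labels' protocols, replicate numbers mark flow cells with 1 library per group, which pairs libraries by design. The correlation of same-number deviations was -0.14 to 0.16 (median 0.02) over 18 pairs. Alternatives were the replicate block, other pseudocounts, filters and scaling, DESeq2 1.42.0 and leaving out each library.

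The genes and lists were chosen with earlier results of these data known. Genes named were the members, the 3 of highest mean level in each list, the 3 most like each member, the mutated loci and markers. SnRK2.5, SnRK2.7, vp1, PYL3, PYL6, PYL9, PYL12, glb1 and oleosin were named after their values were seen.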

Additional observations from a re-analysis of the deposited data

How the results depend on the processing

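Leaving out each library in turn kept the direction and the side of the threshold for 179 of 186 values of the 4 genes. The exceptions and their ranges over the libraries were dhn2 in nkd against B73 aleurone (0.80 to 1.75), dhn2 between tissues in B73 (1.82 to 3.42), emb5 between tissues in nkd (fitted 8.49 to 9.55, values that depend on the prior count), dhn1 between tissues in B73 (-1.46 to 0.95) and GRMZM2G147014 between tissues in nkd (-0.10 to 0.88). The cause was not tested. Of the 19 tests of these genes 1 passed, so keeping the side of the threshold mostly meant not passing again. Tissue comparisons within a genotype were also refitted without libraries of the other genotype, which enter only through the shared scaling and spread. Counts of genes called were 1847 to 3660 for nkd against B73 in aleurone, 9 to 104 in starchy endosperm, 0 to 422 between tissues in B73, 654 to 2542 between tissues in nkd and 0 to 0 for the difference of the effects.

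Over other settings 140 of 141 values kept both, the exception being dhn2 between tissues in B73 under DESeq2 (2.19). The replicate block changed no call of the 4 genes: dhn2 in starchy endosperm had a limma adjusted p of 0.0527 with the block, and 0.0527 to 0.283 over all settings. Counts moved by over 1.5 times were, for nkd against B73 in aleurone, 1455 with edgeR over all 12 libraries, chosen after seeing the data. In starchy endosperm the counts were 1721 with DESeq2, 1111 with edgeR over all 12 libraries, 212 with edgeR over 6, 197 with limma without a trend and 215 without a filter. DESeq2 called 1445 genes between tissues in B73, 3931 in nkd and 194 for the difference of the effects. With a mean of at least 20, dhn1 was not tested in starchy endosperm. Few reads of dhn1 and emb5 limit what the starchy endosperm libraries can show.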

Other observations

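The raffinose synthesis list held 1 named gene, gols2, which encodes galactinol synthase of the pathway that makes the sugars stored beside LEA proteins in drying seeds. The level of gols2 was 1426, 434 and 300 normalised reads in nkd aleurone, against 202, 171 and 878 in B73 aleurone. The groups overlapped through B73 replicate 3, the library that was also high for dhn1, emb5 and mlg3, and the difference was 0.87 (limma adjusted p = 0.468). In nkd starchy endosperm it had 13.9, 24.8 and 719 normalised reads, against 46.9, 95.3 and 4.48 in B73 starchy endosperm, the last from 1 read. Replicate 3 was the high library of nkd here, as it was for dhn1, and the other 2 nkd libraries lay within the range of B73.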
